A study of Mus musculus with 6 samples.

Results

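Kinesins are the motor proteins that walk along microtubules, and the mouse genes for them share the names Kif and Kifc. Of the 53801 Ensembl genes with a deposited count, 41 were protein-coding genes whose symbol is Kif with a number and at most one letter from a to c, or Kifc with a number. The names alone chose the genes, by a rule set with earlier results of these data known. The classes were assigned by hand, also with those results known. By their known roles, 12 of the 41 were grouped as mitotic kinesins, 15 as transport kinesins and 14 as other kinesins. Of those 14, 6 regulate microtubule ends, 5 serve cilia and Hedgehog signalling, 2 lack motor activity and 1 (Kif28) was left without a role. Cenpe and Stard9 encode kinesins under other names and are given beside them.

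A kinesin splits ATP in a conserved motor domain and turns it into steps along a microtubule, in most families toward the plus end. Transport kinesins bind vesicles, organelles or RNA through their tails, often by way of adaptor proteins, and move them through the cytoplasm of a cell at any stage. Mitotic kinesins build the spindle, move chromosomes, trim microtubule ends and bring the cell through cytokinesis, and their mRNAs accumulate in G2 and M phase of dividing cells. Osteoblast precursors divide before they lay down matrix, and both kinds of motor work in them.

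RNA was sequenced in 6 libraries from cells labelled MC3T3-E1, a pre-osteoblast line from mouse calvaria. The 3 scramble libraries came from cells with a lentivirus carrying a non-silencing hairpin, and the 3 Hdac4-shRNA libraries from cells with a lentivirus carrying a hairpin against Hdac4, a class II histone deacetylase. Both cell lines had been kept under 5 µg/mL puromycin for 7 days. Within a group, the 3 RNA samples were prepared independently from 1 transduced line, so each group stands for 1 infection, and the p-values below measure the spread between RNA samples of that line and not between infections.

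The libraries held 29096544 to 31053296 reads on genes for scramble and 29554263 to 31651826 for Hdac4-shRNA. As a check of the labels, Hdac4 had 1136 to 1243 counts in scramble and 887 to 950 in Hdac4-shRNA, a change of -0.44 on the log2 scale (SE 0.057, adjusted p = 8.98e-07, edgeR), with no overlap of the groups. An exact permutation test, two-sided, gave 0.1 for Hdac4, which 3 libraries against 3 cannot go below. Gm26720 overlaps 22.4% of its exon bases. Levels are given as CPM, counts scaled to library size with TMM normalization. Summed over 9 osteoblast lineage markers, CPM was 4780 to 4794 in scramble and 21785 to 22613 in Hdac4-shRNA, with 5 of the 6 tested markers higher and 1 lower, and with Alpl, Ibsp and Bglap at or near 0 in both groups. Most of the rise of this sum lay in Col1a1, given below, and Col1a2 (mean 1213 CPM in scramble and 8572 in Hdac4-shRNA). Runx2 rose 1.14-fold with overlapping groups, and the lower marker was Spp1 (mean 3154 and 2046 CPM). The 4 myoblast markers Myod1, Myf5, Myog and Des summed to 828 to 867 CPM in scramble and 111 to 126 CPM in Hdac4-shRNA, and all 4 fell. The 4 neural markers summed to 433 to 454 and 83.9 to 92.2 CPM, the 3 tested of them lower, and the 4 mesenchymal markers, of which Vim gave most reads, to 10272 to 10773 and 9514 to 10076 CPM. Of the 3 mesenchymal markers tested, Pdgfra and Pdgfrb rose and Vim fell. Endothelial, macrophage and epithelial markers summed to at most 3.13 CPM in any library. Single markers moved far, as Col1a1, the main bone collagen chain, went from 338 ± 14.4 to 11015 ± 326 CPM and Nefl, a neurofilament, from 249.8 ± 9.2 to 0.0319 ± 0.0323 CPM (SD, n = 3). The scramble libraries thus held RNA of the 4 myoblast markers and of Nefl that the Hdac4-shRNA libraries held at far lower levels. The neural markers Tubb3 and Map2 fell less, to 46.8% and 35.6% of scramble, and Rbfox3 had at most 1 read in any library. Differences between the 2 lines that the hairpin brought and differences present otherwise cannot be told apart in this design. The part of the marker levels in the kinesin results was not tested. The RNA comes from whole cultures, in which fewer cells in G2 and M phase and less mitotic RNA per cell cannot be told apart.

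Of the 41 kinesin genes, 33 had enough counts to be tested, and a gene was called when its adjusted p was below 0.05 and its log2 fold change lay more than 0.05 from 0. By this rule, 18 kinesins fell and 8 rose in Hdac4-shRNA, whereas over all 14531 genes tested 37.1% fell and 38.0% rose. The other 7 did not pass. The median log2 fold change of the 33 kinesins was -0.51, against 0.01 for all genes tested. The classes differed widely in their counts. All 12 mitotic kinesins fell, 3 of the 14 tested transport kinesins fell and 6 rose, and among the 7 tested other kinesins 3 fell and 2 rose. Hdac4-shRNA libraries lay below every scramble library for 18 kinesins and above for 8, compared with 38.0% and 38.8% of all genes tested. Beyond a log2 fold change of 0.5, 17 kinesins fell and 6 rose, where 19.8% of all genes fell and 24.6% rose. Beyond 1, 13 fell and 5 rose, where 10.6% of all genes fell and 16.5% rose. Of those 13, 10 were mitotic kinesins and 1 was a transport kinesin.

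**Figure D1:**
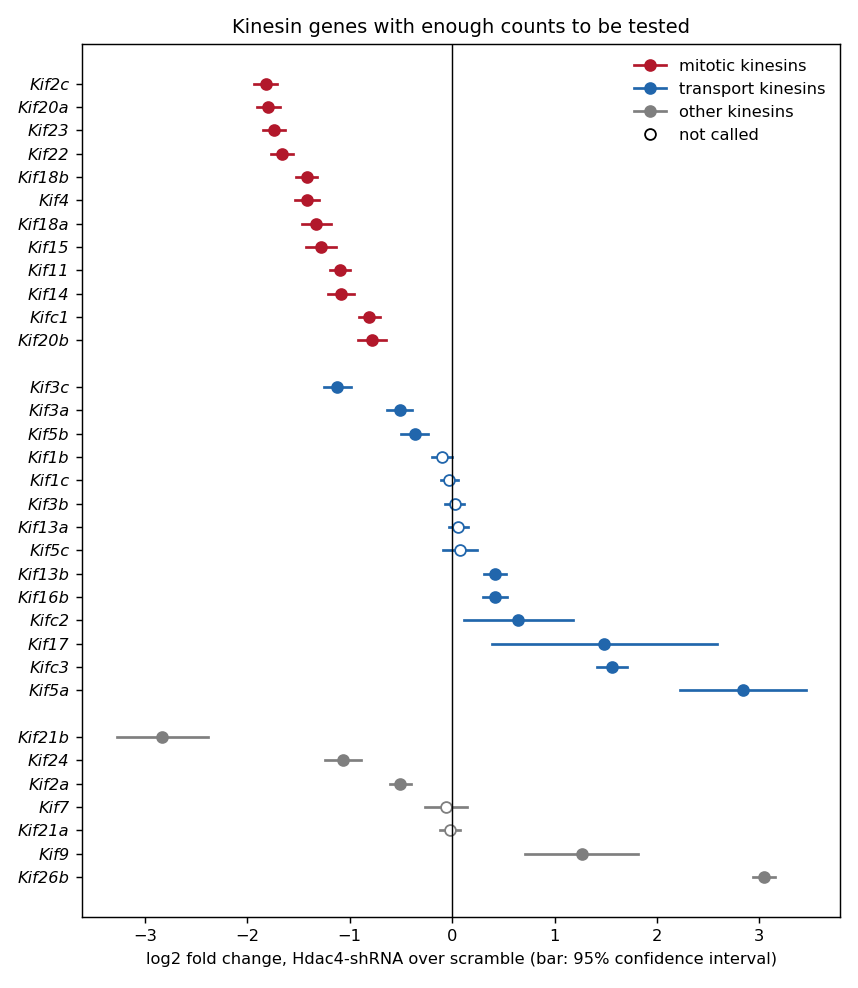
Log2 fold change (Hdac4-shRNA over scramble) of the 33 kinesin genes tested, in rows by class, with 95% confidence intervals as bars and open points for genes that were not called. The mitotic kinesins lie between -1.82 and -0.78, while transport and other kinesins spread to both sides of 0, from -2.83 to 3.05.

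Mitotic kinesins were lower in every Hdac4-shRNA library. Their median log2 fold change was -1.37, and the Hdac4-shRNA libraries lay below all scramble libraries for 12 of 12, the pattern that 38.0% of all genes tested showed. The summed level of the class was 1102 to 1130 CPM in scramble and 416 to 456 CPM in Hdac4-shRNA. Each of the 12 had at least 410 counts in every library, so none of these changes rests on a few reads. The decrease ran from 1.72-fold for Kif20b to 3.54-fold for Kif2c. This range depends on the grouping, as Kif2a, which also acts at spindle poles, was placed among the other kinesins. Its log2 fold change of -0.51 was smaller than that of any of the 12, and no alternative counted it as mitotic.

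Among the motors that set microtubule length in the spindle was the gene with the largest change of the class. Kif2c (MCAK), which strips tubulin from microtubule ends at centromeres, lies on chromosome 4 from 117159639 to 117182639 (GRCm38, minus strand). Its level was 93.5, 95.7 and 97.0 CPM in the scramble libraries and 27.5, 25.5 and 28.0 CPM in the Hdac4-shRNA libraries. The groups stood far apart, with a change of -1.82 on the log2 scale (SE 0.0529, adjusted p = 7.98e-17). Kif18b, which works with Kif2c on the plus ends of astral microtubules, had 93.6, 96.7 and 93.7 CPM in scramble and 35.9, 35.5 and 34.6 CPM in Hdac4-shRNA (log2 fold change -1.42, SE 0.0486). Kif18a, its kinesin-8 relative that damps chromosome movements at metaphase, went from 33.7 ± 0.156 to 13.4 ± 0.59 CPM (SD, n = 3, log2 fold change -1.33, SE 0.0676). Both tested kinesin-8 genes fell, with overlapping 95% intervals of the log2 fold change.

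Chromokinesins ride on chromosome arms. Kif22 (Kid), which pushes the arms toward the spindle equator, had 99.2, 95.9 and 98.2 CPM in scramble and 31.6, 29.7 and 31.4 CPM in Hdac4-shRNA, a change of -1.66 on the log2 scale (SE 0.0503, adjusted p = 1.51e-16). Kif4, which also limits the length of midzone microtubules together with Prc1, had 91.9 ± 2.96 CPM and 34.4 ± 2.49 CPM (SD, n = 3, log2 fold change -1.42, SE 0.0563). Kif4 shares 15.1% of its exon bases with Pdzd11, and with an unstranded kit reads there cannot be given to either gene for certain.

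Spindle assembly motors had log2 fold changes from -1.28 to -0.81. Kif11 (Eg5), which slides antiparallel microtubules and pushes the poles apart, had the most counts of the class in each scramble library. It reached 139, 142 and 146 CPM in scramble and 69.4, 62.5 and 68.4 CPM in Hdac4-shRNA, a change of -1.09 on the log2 scale (SE 0.0483, adjusted p = 6.4e-14). Kif15, which can stand in for Kif11, had a log2 fold change of -1.28 (SE 0.0699), from 56.3 ± 2.78 to 23.2 ± 2.44 CPM (SD, n = 3). Kifc1, the minus-end-directed kinesin-14 that focuses the poles, had 75.5, 74.4 and 76.3 CPM in scramble and 43.5, 44.1 and 41.5 CPM in Hdac4-shRNA. Its log2 fold change of -0.81 (95% interval -0.91 to -0.71) was among the smallest of the class. The near copy Kifc5b is counted as a gene of its own, and its level was 49.4 ± 2.09 and 19.4 ± 1.04 CPM (SD, n = 3, log2 fold change -1.35, SE 0.063). Reads that fit both copies could have been set aside as not unique, so the value of Kifc1 is uncertain to that extent.

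Cytokinesis motors had log2 fold changes from -1.80 to -0.78. Kif23 (MKLP1), the motor of the centralspindlin complex with Racgap1, had 117, 117 and 114 CPM in scramble and 36.1, 32.4 and 35.7 CPM in Hdac4-shRNA, a change of -1.74 on the log2 scale (SE 0.0515, adjusted p = 1.09e-16). Kif20a (MKLP2), which brings the Aurkb complex to the central spindle, had 134, 139 and 144 CPM in scramble and 38.2, 38.7 and 42.9 CPM in Hdac4-shRNA, a log2 fold change of -1.80 (SE 0.0528). Cdc23 overlaps 29.3% of its exon bases. Kif14, which binds Prc1 and citron kinase at the midbody, went from 48.6 ± 1.43 to 22.9 ± 0.868 CPM (SD, n = 3, log2 fold change -1.09, SE 0.0589). Kif20b, which acts in the last step of cytokinesis, had 123, 118 and 123 CPM in scramble and 77.9, 60.8 and 73.2 CPM in Hdac4-shRNA. This was the smallest change of the 12, with a log2 fold change of -0.78 (95% interval -0.92 to -0.64). The intervals of Kif20b and Kifc1 lay above those of the other 10 mitotic kinesins. Within the kinesin-6 family, the count ratio of Kif20a to Kif20b was 1.09 to 1.17 in scramble and 0.49 to 0.637 in Hdac4-shRNA. Cenpe, the kinetochore kinesin that moves chromosomes to the metaphase plate, had 166 ± 4.77 and 68.0 ± 8.68 CPM (SD, n = 3, log2 fold change -1.29, SE 0.0647), inside the range of the class.

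**Figure D2:**
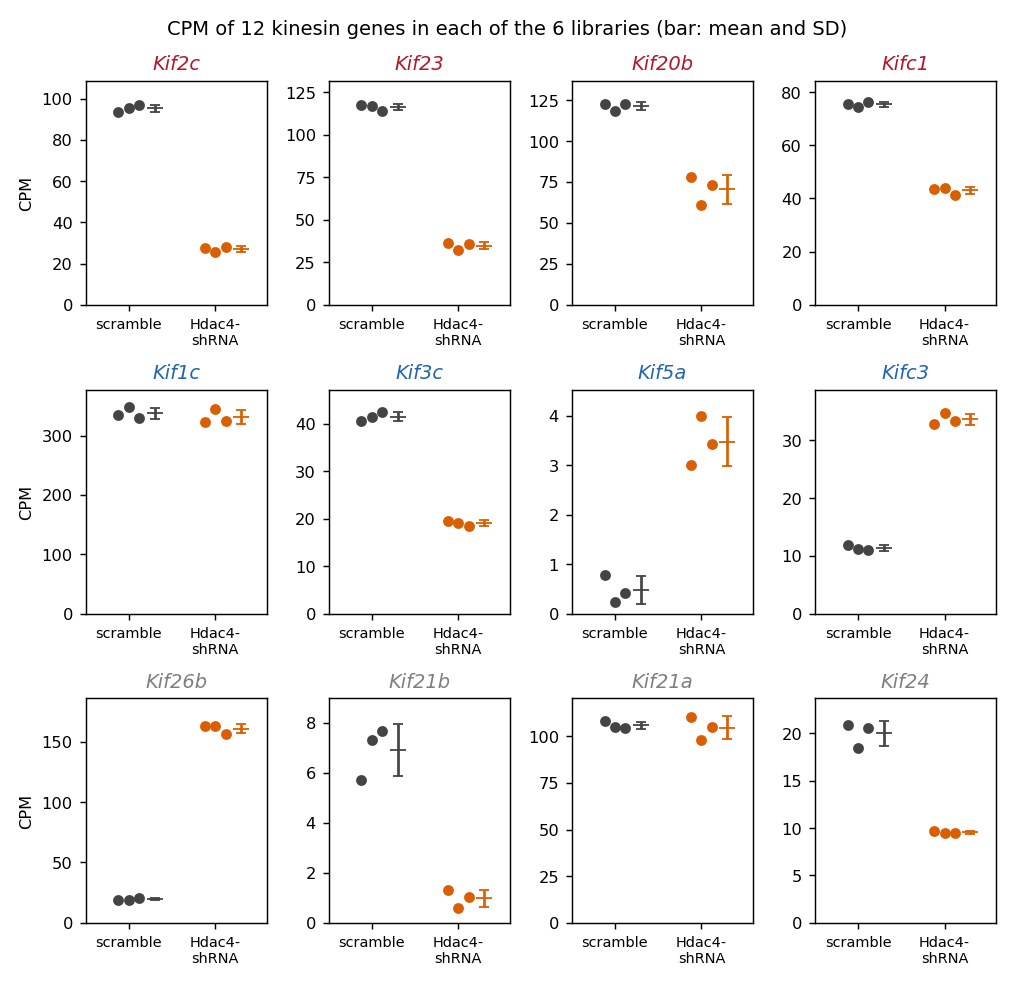
CPM (y axis from 0, scaled for each gene) of 12 kinesin genes in each scramble and Hdac4-shRNA library, as points, with the mean and SD of 3 libraries beside them. Titles are red for mitotic, blue for transport and grey for other kinesins. The groups are apart for each gene shown except Kif1c and Kif21a.

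The promoters of the mitotic kinesins share sequence features that their names did not choose. Many genes used in G2 and M phase carry a cell cycle homology region (CHR) near the start, often with CCAAT boxes upstream, where MuvB complexes such as DREAM bind the CHR and NF-Y binds the CCAAT box. RefSeq promoter windows of 300 bases (GRCm38.p6, 250 bases before and 50 from the annotated start) were given for 32 of the 41 kinesin genes. The windows were searched on both strands for TTTGAA or TTCGAA as CHR letters, for CCAAT, and for TTCCCGC or TTTGGCG as E2F-like cores. Of the 11 mitotic kinesins with a window, 10 held CHR letters, or 90.9%, compared with 19.2% of all 32851 windows. In 7 of the 11, CHR letters and CCAAT occurred together, compared with 7.52% of all windows. The other mitotic genes listed further below, which are not kinesins, had 15 windows. Of these, 13 held CHR letters and 12 held CHR letters and CCAAT together. The spindle partners listed there had 16 windows, of which 8 held CHR letters and 8 held both. CHR letters were thus not particular to the kinesins among these mitotic genes. Transport kinesins had 12 windows for 10 genes, of which 1 (Kif1a) held CHR letters, 4 held CCAAT (Kif3a, Kif3b and both windows of Kif1b) and 0 held both. E2F-like cores were found in 2 mitotic windows (Kif15 and Kif18a), in 2 transport windows and in 5.99% of all. The 2 transport windows are overlapping windows of Kif1b that hold the same site. In 8 windows of mitotic kinesins a CHR match began between base -50 and base 50, counting the start as base 1. This limit was chosen after the positions were seen, and 5.31% of all windows held such a match. Kif18a was the mitotic kinesin without CHR letters in this window. A match to so few letters is a description of the sequence and not a binding site.

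The windows below are written 5′ to 3′ on the strand of the gene, with CHR and CCAAT letters in capitals, on either strand (on the other strand, CHR reads TTCAAA or TTCGAA and the CCAAT box reads ATTGG). The first 4 belong to mitotic kinesins that fell by a log2 fold change of more than 1, Kif20b fell the least and holds 2 CHR matches in a row, Kif1c is the transport kinesin of highest level and holds no match, and Kif26b rose and holds both.
Kif2c, chr4:117178723-117179022 (minus strand): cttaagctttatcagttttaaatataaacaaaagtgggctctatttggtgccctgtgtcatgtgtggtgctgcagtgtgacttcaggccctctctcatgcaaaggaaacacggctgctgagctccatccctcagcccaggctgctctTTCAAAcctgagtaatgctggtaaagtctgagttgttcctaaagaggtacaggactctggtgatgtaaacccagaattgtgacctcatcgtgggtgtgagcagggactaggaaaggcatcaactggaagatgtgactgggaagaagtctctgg
Kif23, chr9:61946750-61947049 (minus strand): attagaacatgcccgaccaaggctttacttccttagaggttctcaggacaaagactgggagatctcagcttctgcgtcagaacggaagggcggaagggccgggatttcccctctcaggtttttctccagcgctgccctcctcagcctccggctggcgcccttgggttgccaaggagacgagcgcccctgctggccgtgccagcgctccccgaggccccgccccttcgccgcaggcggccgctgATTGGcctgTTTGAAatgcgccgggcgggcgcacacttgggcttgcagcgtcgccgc
Kif22, chr7:127042371-127042670 (minus strand): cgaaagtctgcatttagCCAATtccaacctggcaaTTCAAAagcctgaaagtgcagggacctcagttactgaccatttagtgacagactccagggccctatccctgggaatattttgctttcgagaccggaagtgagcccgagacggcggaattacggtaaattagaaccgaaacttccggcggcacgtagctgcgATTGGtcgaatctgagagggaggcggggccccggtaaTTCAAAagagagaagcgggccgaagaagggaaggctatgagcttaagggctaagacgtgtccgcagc
Kif18b, chr11:102925075-102925374 (minus strand): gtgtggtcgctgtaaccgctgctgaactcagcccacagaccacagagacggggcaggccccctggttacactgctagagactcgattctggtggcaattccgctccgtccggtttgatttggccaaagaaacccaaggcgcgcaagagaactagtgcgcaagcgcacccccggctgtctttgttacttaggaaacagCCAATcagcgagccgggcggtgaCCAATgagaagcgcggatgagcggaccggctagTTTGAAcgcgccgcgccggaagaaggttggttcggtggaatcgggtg
Kif20b, chr19:34922108-34922407 (plus strand): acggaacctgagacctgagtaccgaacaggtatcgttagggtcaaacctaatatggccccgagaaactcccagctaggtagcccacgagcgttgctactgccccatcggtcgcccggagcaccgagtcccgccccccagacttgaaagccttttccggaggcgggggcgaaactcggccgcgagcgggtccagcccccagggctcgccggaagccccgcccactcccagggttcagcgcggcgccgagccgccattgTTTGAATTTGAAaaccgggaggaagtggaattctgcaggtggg
Kif1c, chr11:70700298-70700597 (plus strand): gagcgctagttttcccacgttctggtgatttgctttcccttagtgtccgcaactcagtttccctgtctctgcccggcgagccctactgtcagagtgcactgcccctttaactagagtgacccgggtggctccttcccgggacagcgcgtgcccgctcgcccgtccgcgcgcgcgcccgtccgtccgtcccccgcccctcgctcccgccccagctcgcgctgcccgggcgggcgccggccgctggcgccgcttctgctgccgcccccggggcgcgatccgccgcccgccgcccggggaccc
Kif26b, chr1:178528875-178529174 (plus strand): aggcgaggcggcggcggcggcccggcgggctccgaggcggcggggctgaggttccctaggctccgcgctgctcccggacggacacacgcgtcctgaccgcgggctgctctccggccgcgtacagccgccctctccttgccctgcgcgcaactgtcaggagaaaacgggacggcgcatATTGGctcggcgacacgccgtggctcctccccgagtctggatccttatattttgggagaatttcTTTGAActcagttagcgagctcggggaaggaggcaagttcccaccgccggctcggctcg
The RefSeq starts used for Kif2c, Kif14 and Kif27, among others, lie inside the GENCODE gene and not at its outermost end. Such a window is the upstream region of 1 annotated start. Kif20b, with a pair of CHR matches from base 8 to base 19, fell less than Kif2c, whose CHR letters lie at bases -103 to -98. Of the 13 windows of other kinesins, 3 held both kinds of letters (23.1%). Kif27 held CHR letters from bases -191, -89 and -73 and a CCAAT box from base -222, Kif24 held CHR letters from base -26 and 4 CCAAT boxes, and Kif26b held CHR letters from base -9 and a CCAAT box from base -73.

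**Figure D3:**
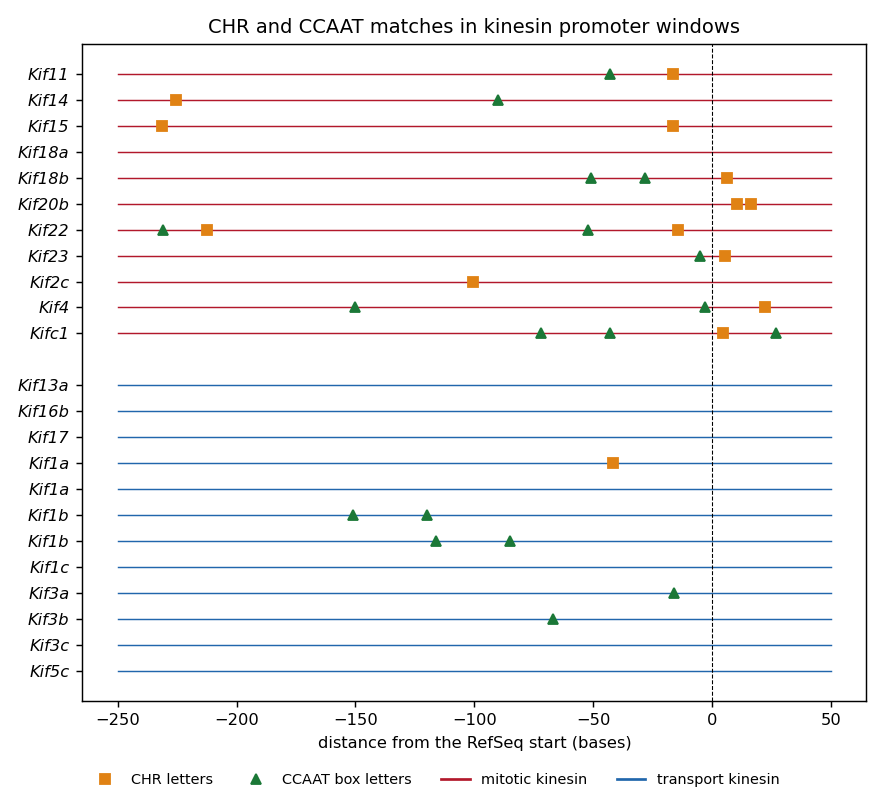
Positions of CHR letters (squares) and CCAAT boxes (triangles) in the RefSeq promoter windows of mitotic (red lines) and transport kinesins (blue lines), with distance from the annotated start in bases on the x axis. CHR letters occur in 10 of 11 mitotic windows and in 1 of 12 transport windows, and genes listed more than once have several annotated starts.

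Transport kinesins moved in both directions and, as a class, little. Their median log2 fold change was 0.07, and their summed level was 1112 to 1133 CPM in scramble and 1050 to 1084 CPM in Hdac4-shRNA. The 6 of 14 that rose and 3 of 14 that fell compare with 38.0% and 37.1% of all genes tested. The number that fell was 5 without Hdac4-shRNA replicate 1 and 5 without a count filter, and the number that rose dropped to 4 on leaving out scramble replicate 1 or Hdac4-shRNA replicate 2. Of the 14, Kif3c alone had a log2 fold change inside the range of the mitotic kinesins.

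Kinesin-1 is the main carrier of vesicles, mitochondria and RNA granules, built from a Kif5 heavy chain and Klc light chains. Kif5b, the heavy chain of most tissues, had 264, 267 and 290 CPM in scramble and 230, 183 and 223 CPM in Hdac4-shRNA, and fell by 0.37 on the log2 scale (SE 0.0633, adjusted p = 3.49e-05). Kif5c, a mainly neuronal heavy chain, had 16.5 ± 1.33 and 17.4 ± 0.769 CPM (SD, n = 3), with a log2 fold change of 0.08 (95% interval -0.09 to 0.24, adjusted p = 0.403). Kif5a, the other mainly neuronal heavy chain, was barely counted in scramble, with 24, 7 and 12 reads, and had 93, 129 and 103 reads in Hdac4-shRNA. Its groups did not overlap, and the log2 fold change was 2.84 (SE 0.294, adjusted p = 4.24e-08). Per kilobase of exon, Kif5a still made up 1.36 to 2.21% of kinesin-1 heavy chain RNA in Hdac4-shRNA, compared with 0.0932 to 0.316% in scramble. Among the light chains, Klc1 fell by 0.12 on the log2 scale (adjusted p = 0.00864), Klc3 had a log2 fold change of -1.19 at a mean of 0.959 CPM in scramble and 0.415 CPM in Hdac4-shRNA (adjusted p = 0.00915), and Klc2 and Klc4 did not pass (log2 fold change -0.10 and 0.08).

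Kinesin-2 motors carry material along the cilium and in the cytoplasm, as Kif3a with Kif3b or Kif3c and the adaptor Kifap3, or as Kif17 dimers. Kif3a had 51.7, 50.7 and 57.3 CPM in scramble and 38.2, 37.3 and 36.3 CPM in Hdac4-shRNA (-0.51 on the log2 scale, SE 0.0582, adjusted p = 1.47e-07). Kif3b had 76.6 ± 1.28 and 77.9 ± 1.41 CPM (SD, n = 3), a log2 fold change of 0.03 (95% interval -0.07 to 0.12). Kif3c had 40.5, 41.4 and 42.5 CPM in scramble and 19.6, 19.1 and 18.4 CPM in Hdac4-shRNA (-1.12 on the log2 scale, SE 0.0612, adjusted p = 2.1e-12). The alternative partners of Kif3a therefore differed, and per kilobase of exon Kif3c was 28.3 to 29.9% of Kif3b and Kif3c together in scramble and 15.5 to 16.0% in Hdac4-shRNA. Kif3c shares 40.7% of its exon bases with 1110002L01Rik and Gm48512. Reads there could have been set aside as shared between genes, or part of its count may belong to those genes. The level of Kif3c and its share beside Kif3b are uncertain to that extent. Kifap3 fell by 0.26 on the log2 scale (SE 0.047, adjusted p = 5.16e-05). Kif17 had 4, 3 and 8 reads in scramble and 11, 24 and 10 in Hdac4-shRNA (1.49 on the log2 scale, SE 0.525, adjusted p = 0.0156). That call was lost without scramble replicate 1 (adjusted p = 0.0655), without scramble replicate 2 (adjusted p = 0.0741) or without Hdac4-shRNA replicate 2 (log2 fold change 1.01, adjusted p = 0.13), all by edgeR.

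Kinesin-3 motors are fast carriers of vesicles and endosomes and gave the largest share of transport kinesin counts. Kif1c, which carries dense core vesicles and integrins, had 335, 348 and 329 CPM in scramble and 324, 345 and 325 CPM in Hdac4-shRNA. The groups overlapped, with a log2 fold change of -0.03 (95% interval -0.11 to 0.06, adjusted p = 0.554), whose sign turned under other scalings (0.03 by library size alone and 0.06 by upper quartile). Kif1b, a carrier of mitochondria and synaptic vesicle precursors, had 150 ± 2.5 and 140 ± 8.16 CPM (SD, n = 3, log2 fold change -0.10, adjusted p = 0.0591), and passed without Hdac4-shRNA replicate 1 (log2 fold change -0.13, adjusted p = 0.0147). Kif13a, which moves recycling endosomes, had a log2 fold change of 0.06 (95% interval -0.04 to 0.15). Kif13b went from 44.3 ± 0.404 to 59.3 ± 2.76 CPM (SD, n = 3, log2 fold change 0.42, SE 0.0525), and Kif16b, which positions early endosomes, from 32.0 ± 0.18 to 42.8 ± 1.07 CPM (SD, n = 3, log2 fold change 0.42, SE 0.0552). Kif13b and Kif16b were the 2 kinesin-3 genes that rose, each 1.34-fold. Kif1a, the neuronal carrier of synaptic vesicle precursors, had 12, 17 and 5 reads in scramble and 1, 1 and 2 in Hdac4-shRNA, too few to be tested.

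Minus-end-directed transport kinesins of the kinesin-14 family were called higher. Kifc3, which works at cell junctions and in transport toward the minus end, lies on chromosome 8 from 95099828 to 95202812 (minus strand). It had 11.9, 11.3 and 11.0 CPM in scramble and 32.7, 34.7 and 33.4 CPM in Hdac4-shRNA, a rise of 2.95-fold (1.56 on the log2 scale, SE 0.0704, adjusted p = 9.34e-14), and some of its exon bases overlap predicted genes. Kifc2, a neuronal relative, had 31, 39 and 26 reads in scramble and 46, 65 and 47 in Hdac4-shRNA (0.65 on the log2 scale, SE 0.255, adjusted p = 0.0281). The Kifc2 call was lost with DESeq2 (adjusted p = 0.0519), without scramble replicate 1 (0.0791) or 3 (0.107) and without Hdac4-shRNA replicate 2 (0.133). The 3 kinesin-14 genes thus did not move together, as Kifc1 fell while Kifc3 rose.

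**Figure D4:**
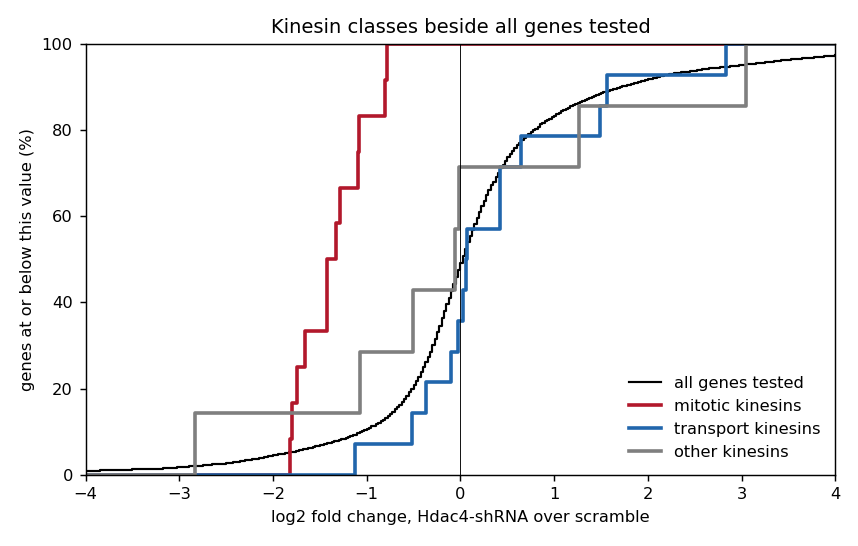
Share of genes (y axis, %) at or below a given log2 fold change (x axis, Hdac4-shRNA over scramble) for all 14531 genes tested and for each kinesin class, drawn as steps. The mitotic kinesins end at -0.78, left of 0, while the steps of the 14 transport kinesins lie on both sides of 0, as the line of all genes does.

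The other kinesins held the largest changes of all members in both directions. Kif26b, which lacks the ATPase activity of a motor and acts in Wnt5a and Ror signalling and in kidney development, lies on chromosome 1 from 178529125 to 178939200 (plus strand). It had 581, 565 and 589 reads in scramble and 5054, 5260 and 4712 in Hdac4-shRNA, or 19.5 ± 0.995 and 161 ± 3.89 CPM (SD, n = 3). The groups were far apart, an 8.25-fold rise (3.05 on the log2 scale, SE 0.0527, adjusted p = 2.37e-20), and 95.2% of all genes tested had a lower log2 fold change. Its relative Kif26a was nearly absent, with 0, 0 and 2 reads in scramble and 12, 8 and 6 in Hdac4-shRNA.

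Kif21b, a kinesin-4 that pauses microtubule growth, lies on chromosome 1 from 136131389 to 136177998 (plus strand). Its reads numbered 175, 219 and 219 in scramble and 40, 19 and 31 in Hdac4-shRNA, a 7.12-fold fall (-2.83 on the log2 scale, SE 0.213, adjusted p = 3.26e-10). The paralog Kif21a had 108, 105 and 105 CPM in scramble and 111, 98.2 and 105 CPM in Hdac4-shRNA, with overlapping groups and a log2 fold change of -0.02 (95% interval -0.12 to 0.08). Its sign turned by library size alone (0.04) and by upper quartile (0.07). The count ratio of Kif21a to Kif21b was 13.6 to 18.9 in scramble and 85.5 to 166.5 in Hdac4-shRNA. The other tested kinesin-13 genes fell by less than Kif2c, with 95% intervals that did not reach its own. Kif24, a centriole kinesin that restrains cilium formation, had 20.9, 18.4 and 20.6 CPM in scramble and 9.70, 9.46 and 9.47 CPM in Hdac4-shRNA (log2 fold change -1.07, SE 0.0835). Kif2a, which depolymerizes microtubules at spindle poles and in neurites, had 107 ± 1.98 and 75.4 ± 3.67 CPM (SD, n = 3, log2 fold change -0.51, SE 0.0473), and shares 19.2% of its exon bases with Dimt1. The count ratio of Kif2c to Kif2a was 0.88 to 0.901 in scramble and 0.352 to 0.364 in Hdac4-shRNA.

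Ciliary kinesins were mostly scarce. Kif7, which works at the cilium tip in Hedgehog signalling, had 11.8 ± 1.31 and 11.3 ± 0.471 CPM (SD, n = 3, log2 fold change -0.06, 95% interval -0.26 to 0.14), and 20.3% of its exon bases are shared with Ticrr and 9330171B17Rik. Kif9, a kinesin of motile cilia, had 31, 29 and 17 reads in scramble and 74, 66 and 54 in Hdac4-shRNA (1.26 on the log2 scale, SE 0.262, adjusted p = 0.000236). Kif6 had 3, 0 and 3 reads in scramble and 15, 21 and 8 in Hdac4-shRNA and was not tested. The remaining untested genes had at most 16 reads in any library, which were Kif19a, Kif27, Kif12 and Kif28, and Kif2b had none in any. Stard9, a kinesin under another name, had 47.6 ± 1.09 and 43.0 ± 3.41 CPM (SD, n = 3, log2 fold change -0.15, adjusted p = 0.0346), a call lost in 6 alternatives: without scramble replicate 2 (adjusted p = 0.0869), without Hdac4-shRNA replicate 3 (0.246), by library size alone (0.188), by upper quartile (0.405), with at least 10 counts per library (0.114) and with DESeq2 (0.0544).

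The make-up of kinesin RNA shifted accordingly. Levels of different genes were compared as CPM per kilobase of merged exons. Exon bases shared with other genes were kept in this length. Levels and ranks of members such as Kif3c, Kif20a and Kifc3 are therefore too low if reads there were set aside. Mitotic kinesins made up 52.2 to 52.4% of kinesin RNA in the scramble libraries and 29.9 to 31.2% in the Hdac4-shRNA libraries, and transport kinesins 37.3 to 37.5% and 52.2 to 53.5%. The mitotic level per kilobase was 1.39 to 1.40 times the transport level in scramble and 0.559 to 0.597 times in Hdac4-shRNA. This shift came with a fall of the mitotic sum from 203 ± 2.73 to 79.6 ± 3.17 CPM per kilobase (SD, n = 3), while the transport sum was 145 ± 1.63 and 137 ± 1.58 CPM per kilobase (SD, n = 3).

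**Figure D5:**
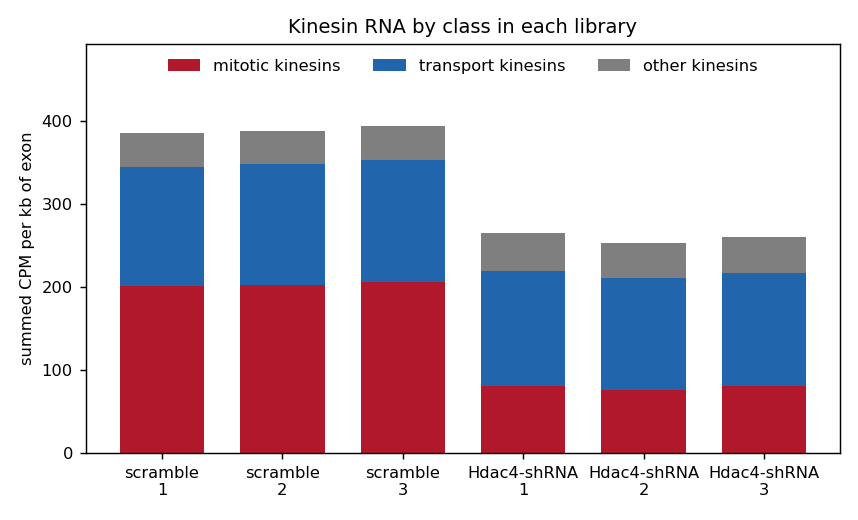
Summed CPM per kilobase of exon (y axis, from 0) of mitotic, transport and other kinesins in each of the 6 libraries, as stacked bars. The mitotic part shrinks from about the same height in the 3 scramble libraries (201 to 207) to 75.9 to 81.5 in the Hdac4-shRNA libraries, while the transport part stays between 136 and 147.

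The order of the single genes changed for some mitotic kinesins and less for others. Kif1c was the most abundant kinesin per kilobase in both groups, at 46.4 CPM per kilobase in scramble and 45.5 in Hdac4-shRNA, followed in both by Kif5b, at 34.3 and 26.6. In scramble the next places were Kif20a (31.9), Kif18b (26.5), Kifc1 (22.1) and Kif2c (21.9), of which Kifc1 and Kif2c had overlapping ranges, as had Kif5b and Kif20a. In Hdac4-shRNA the next places were held by Kif21a (16.2) and Kif3b (13.8), while Kif20a came 12th and Kif2c 18th of 41. Kifc1 stayed at rank 5, and Kif20b was at rank 9 in scramble and 10 in Hdac4-shRNA. Kif26b moved from rank 28 to rank 7, and Kifc3 from rank 27 to rank 15.

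Genes that work with these motors were read from lists of known partners. Of 16 spindle partners of mitotic kinesins, 14 fell, where 37.1% of all genes fell, with a median log2 fold change of -1.27 over the list. Hmmr, a spindle protein, had 118 ± 3.06 and 31.5 ± 2.36 CPM (SD, n = 3, log2 fold change -1.91). The kinase Aurkb, cargo of Kif20a, had a log2 fold change of -1.84, Prc1, which bundles midzone microtubules and binds Kif4 and Kif14, of -1.82, and the kinase Aurka of -1.80. Kansl1 alone rose (log2 fold change 0.41), and Cit, the citron kinase bound by Kif14, had 91.8 ± 4.31 and 96.3 ± 3.02 CPM (SD, n = 3, log2 fold change 0.07, adjusted p = 0.197). All 15 other mitotic genes of the list fell, with log2 fold changes from -2.20 for Ube2c, which loads ubiquitin for the anaphase-promoting complex, to -1.14 for Mki67. Ccnb1, the B-type cyclin of mitosis, had 232 ± 2.15 and 58.0 ± 2.48 CPM (SD, n = 3), and the kinases Bub1 and Plk1 had log2 fold changes of -1.77 and -1.76. Their median of -1.64 and that of the mitotic kinesins, -1.37, both stand against 0.01 for all genes.

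Transport partners gave no such common direction. Of 17 transport adaptors tested, 5 rose, 7 fell and 5 did not pass, with a median log2 fold change of -0.10, where 38.0% of all genes rose and 37.1% fell. Kidins220, a kinesin-1 cargo adaptor, went from 148 ± 1.04 to 221 ± 5.12 CPM (SD, n = 3, log2 fold change 0.58), and Mapk8ip3, which links kinesin-1 and dynein to vesicles, rose by 0.56 on the log2 scale. The mitochondrial adaptors Trak1 and Rhot1 fell by 0.57 and 0.45 on the log2 scale. Of 16 dynein and dynactin subunits tested, which drive transport toward the minus end, 3 rose, 7 fell and 6 did not pass, with a median of -0.08. In both lists a smaller share rose than the 38.0% of all genes, and a slightly larger share fell than the 37.1% of all genes. The dynein intermediate chain Dync1i1 stood apart, from 11.9 ± 0.453 to 0.193 ± 0.0869 CPM (SD, n = 3, log2 fold change -5.91, SE 0.208), whereas its paralog Dync1i2, at 191 ± 3.6 and 129 ± 9.4 CPM (SD, n = 3), fell by 0.57 on the log2 scale. Dynlt3 fell by 0.81 and Dctn4 rose by 0.31 on the log2 scale.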

How the data were processed

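Poly-A RNA of 6 MC3T3-E1 libraries, 3 per group, was sequenced with paired ends from an unstranded kit. Per the labels, the authors' processing notes name FastQC, STAR 2.7.3a, HTSeq 0.12.4 and the mm10 build, and the authors deposited raw counts per Ensembl gene, without normalization. The annotation, counting mode and strand setting are not given in the sources used here. Summary lines for uncounted reads were not used as genes. Reads outside genes made up 3.17 to 3.41% of scramble and 4.64 to 5.07% of Hdac4-shRNA reads, reads shared between genes 6.36 to 6.51% and 5.84 to 5.92%, and reads without a unique position 4.61 to 4.77% and 3.88 to 4.15%.

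Symbols, GRCm38 positions and merged exon lengths came from GENCODE M21 (53706 of 53801 identifiers matched) and promoter windows from RefSeq (GRCm38.p6). The groups were tested in edgeR 4.0.16 (R 4.3.3) with TMM factors and a quasi-likelihood F test, after filterByExpr at its default settings, and p-values were adjusted by Benjamini-Hochberg over the 14531 genes tested. Every adjusted p given without another tool comes from this fit. CPM values are given as mean ± SD of 3 libraries, and 95% intervals come from the edgeR fit. Chi-square per degree of freedom between libraries of 1 group was 3.38 to 9.15, above the 1 that counting error alone would give.

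Genes named were Hdac4, every member, Cenpe, Stard9 and, from each partner list, at most 4 called genes of largest log2 fold change with a mean of at least 100 counts. Other genes, such as the light chains, Kifap3, Kansl1, Cit, Mki67, Kifc5b and the cell type markers, were named after their values were seen. The members and lists were chosen with earlier results of these data known. On simulated data (14386 genes), the fit recovered 49 of 60 genes planted at a log2 fold change of 0.5, 58 of 62 at 1 and 72 of 72 at 2, with 12 false calls. The simulation gave all genes the same dispersion and changed only the planted genes. In the real data 38.0% of genes rose and 37.1% fell, so it does not show how the normalization or the false calls behave there. Alternatives were other normalizations, other count filters, DESeq2 1.42.0, limma-voom (limma 3.58.1), the replicate number as a block, leaving out each library, stricter fold changes and changed classes.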

Additional observations from a re-analysis of the deposited data

Results flagged for a closer look

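The share of reads that fell outside genes, which no comparison above uses, was higher in Hdac4-shRNA than in scramble. The lowest Hdac4-shRNA library had 4.64% and the highest scramble library 3.41%, so the groups did not overlap. Reads shared between genes (6.36 to 6.51% in scramble, 5.84 to 5.92% in Hdac4-shRNA) and reads without a unique position (4.61 to 4.77% and 3.88 to 4.15%) did not overlap between the groups either. The former bear on Kif20a and Kif4, whose exons overlap other genes, and the latter on Kifc1, which has a near copy. The part of these differences in the kinesin results was not tested.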

How the results depend on the processing

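The 12 mitotic kinesins were called lower under every alternative normalization, filter, tool and left-out library that was run, and 10 of them at a log2 fold change beyond 1. Scaling by library size alone gave medians of -1.32 (mitotic) and 0.12 (transport), and upper quartile -1.29 and 0.16, with the median of all genes at 0.07 and 0.10. Leaving out members that share over 10% of their exon bases, added after seeing the data, gave a mitotic median of -1.30. Without a count filter the transport median was 0.03 and 5 transport kinesins fell. Leaving out 1 library moved the mitotic median between -1.39 and -1.33, the transport median between 0.0039 (without scramble replicate 3) and 0.081, and the transport kinesins called lower between 3 and 5 (5 without Hdac4-shRNA replicate 1). Beyond a log2 fold change of 0.5, 3579 genes rose and 2879 fell. Beyond 1, 2397 genes rose and 1543 fell, among them 5 kinesins that rose, and in the transport class 3 rose and 1 fell. Directions turned for genes that were not called: Kif1c (0.030 by library size, 0.062 by upper quartile, 0.011 with at least 10 counts per library), Kif21a (0.038, 0.070 and 0.019 likewise, -0.053 to 0.027 on leaving out 1 library, above 0 without Hdac4-shRNA replicate 2), Kif7 (0.028, upper quartile), Kif3b (-0.0028, no filter) and Kif5c (-0.0017 to 0.11 on leaving out 1 library, below 0 without scramble replicate 3). Kif13a was called higher by library size (0.12) and upper quartile (0.15), and Kif3b by upper quartile (0.12). Over 51 named genes, 682 of 711 values kept direction and call.

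The replicate numbers were not shown to pair the groups: same-numbered libraries' deviations correlated at -0.0052, 0.096 and 0.021, and 1 of 3 scramble libraries correlated best with its own number. With the replicate block, 19 kinesins were called lower and 8 higher, 12 mitotic kinesins fell with a median of -1.37, and Kif1b passed (-0.10, adjusted p = 0.0325, edgeR). Depth limits the 8 untested kinesins, each at 21 reads or fewer per library.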
